A study of Bos taurus with 27 samples.

Results

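Trophoblast Kunitz domain proteins (TKDP) and pregnancy-associated glycoproteins (PAG) were followed by the abundance of their transcripts in bovine blastocysts. The members were chosen by gene symbol: 10 were listed, of which 9 were rows of the count table of 32637 genes (TKDP1, TKDP2, TKDP4, PAG1, PAG2, PAG8, PAG10, PAG11 and PAG12), and TKDP3 was not analysed here. The samples were 27 pools, and each held the RNA of 2 day-8 blastocysts graded at stage 7 (expanding or expanded) and quality 1 (excellent or good). All embryos came from abattoir oocytes, were sired by 1 bull and grew in KSOM medium. Their oocytes had been matured in vitro with follicular fluid that came from preovulatory follicles, either of greater or of lesser maturity. The labels do not tie a pool to greater or lesser follicle maturity or to an IVF replicate. So the pools are described as 1 set and no treatments are compared.

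Both families are ruminant specialities of the trophoblast, the outer layer of the embryo that will form the placenta. TKDPs are secreted proteins that carry a Kunitz domain, the fold of the pancreatic trypsin inhibitor, and were first known from the conceptus around the time of maternal recognition of pregnancy. PAGs are secreted relatives of pepsin in the aspartic protease family, and several of them reach the blood of the mother, where they are assayed to diagnose pregnancy. PAG genes fall in an ancient clade (here PAG2, PAG8, PAG10, PAG11 and PAG12), used widely across the trophoblast, and a modern clade, used mainly by the binucleate cells that appear later in placental development.

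The pools had 10517606 to 44253564 counts on genes (median 22293594). Abundance is given as CPM, the count divided by the total of the pool and multiplied by 1000000, so 3 counts, taken as the smallest abundance the depth can show, were between 0.0678 and 0.285 CPM. The libraries read the 3′ end of each mRNA, so counts were not divided by gene length. Levels of different genes are set side by side as they are and were not tested against each other. Leukocyte genes (7 listed) summed to between 15.4 and 103 CPM and cumulus cell genes (7 listed) to between 5.31 and 34 CPM. Genes of both lists were among those compared with each member below. The part of these cells in the results was not tested. Genes of the trophectoderm, the epithelium that gives rise to the trophoblast, differed widely in level. KRT8, its main keratin, was between 10633 and 26270 CPM, GATA3 between 90.5 and 238 CPM and CDX2 between 1.97 and 9.42 CPM. The regulators ELF5 and HAND1 had medians of 1.35 and 1.15 CPM.

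The row named PAG1 did not lie with the other PAG genes. RefSeq places it in ARS-UCD2.0 on chromosome 14, from 44169883 to 44329915, a span of 160 kb with 6 RefSeq transcripts (gene ID 614460). The 5 ancient PAG members lay on chromosome 29 and spanned between 8.43 kb (PAG10) and 17.7 kb (PAG11), with 1 RefSeq transcript each. In other mammals PAG1 is also the symbol of a membrane adaptor protein that binds the kinase CSK and is no relative of pepsin. The glycoprotein that RefSeq lists with the synonyms PAG1 and PAG1B is LOC281964 (gene ID 281964), on chromosome 29 from 38604865 to 38614193, a span of 9.33 kb. LOC281964 had 0 counts in each of the 27 pools, which allows up to 3 counts in a pool. The PAG1 row is therefore called PAG1 of chromosome 14 here, and it is not read as a pregnancy-associated glycoprotein.

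A count of at least 1 CPM in 12 pools was reached by 4 of the 9 member rows: TKDP1, PAG2, PAG11 and PAG1 of chromosome 14. Of all 32637 rows, 37.7% reached it. The other 5 rows, TKDP2, TKDP4, PAG8, PAG10 and PAG12, had counts in some pools and fell below this limit in most.

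TKDP1, the row named TKDP with the most counts, was found in every pool and had the highest SD of log2(CPM + 1) among the members (1.86, against 1.34 for PAG11). The order depended on the measure: the CV of CPM was 146% for TKDP1 and 153% for PAG11, and with a pseudocount of 0.1 the SD was 2.01 and 2.31. It lies on chromosome 13 from 74075296 to 74092083, with 2 RefSeq transcripts. The lowest value was 0.84 CPM (23 counts) in pool 21, the median was 20.9 CPM and the highest was 328 CPM in pool 9. The highest value was 390-fold the lowest. Pools 9, 19, 23 and 41 were above all others, with 328, 151, 146 and 126 CPM. Pools 21, 28, 32 and 15 were lowest, with 0.84, 3.71, 4.08 and 4.4 CPM. The middle of the pools, between the quartiles, was spread from 8.78 to 56.9 CPM. The pools came from both treatments, so this spread includes any difference between them, which was not tested here. In bulk samples, fewer cells of a type and less RNA per cell cannot be told apart.

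TKDP4 and TKDP2, the neighbours of TKDP1 on the same chromosome, were near the limit of detection. TKDP4 lies from 74103138 to 74114983 and had 111 counts in all, in 7 pools. Its highest values were 2 CPM in pool 28, 1.72 CPM in pool 22 and 0.94 CPM in pool 19, and 20 pools had no count. TKDP2 lies from 74145316 to 74155090 and had 36 counts in all. They fell in pools 9, 19 and 15, with 1.1, 0.329 and 0.629 CPM, and 24 pools had no count. Of the counts on these 3 rows, 99.5% were on TKDP1. LOC618696, a neighbouring locus that the study names as a trophoblast Kunitz domain protein, was no listed member. It had 27884 counts, and with it TKDP1 held 53% of the counts and, in single pools, between 5.48% (pool 21) and 77.1% of the summed abundance. Pool 28 was the exception, with low TKDP1 (3.71 CPM) beside the highest TKDP4, and there TKDP1 made up 65% of the summed abundance of the rows named TKDP.

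PAG2, an ancient-clade glycoprotein, was the most counted member and was abundant in all pools. It lies on chromosome 29 from 37572051 to 37581465. The lowest value was 30.1 CPM (622 counts) in pool 15, the median was 128 CPM and the highest was 426 CPM in pool 9. The highest was 14.1-fold the lowest. Pool 9 was followed by pools 5, 14 and 1 with 330, 303 and 301 CPM, and pools 15, 44 and 45 were lowest with 30.1, 48.8 and 58.1 CPM. Pool 1, among the highest in PAG2, was low in TKDP1 (5.39 CPM), so the pools were not ranked alike by the 2 families.

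PAG11, also of the ancient clade, was measured at lower abundance and more unevenly. It lies on chromosome 29 from 39438824 to 39456485. Its median was 2.87 CPM, pools 13 and 35 had no count, and pools 9 and 14 stood above the rest with 34.4 and 20.4 CPM. The next pool, 28, had 8.75 CPM. Among the 200 rows nearest to PAG11 in total count, the median row had a count in every pool, and 97.5% of them had fewer pools without a count than the 2 of PAG11.

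**Figure D1:**
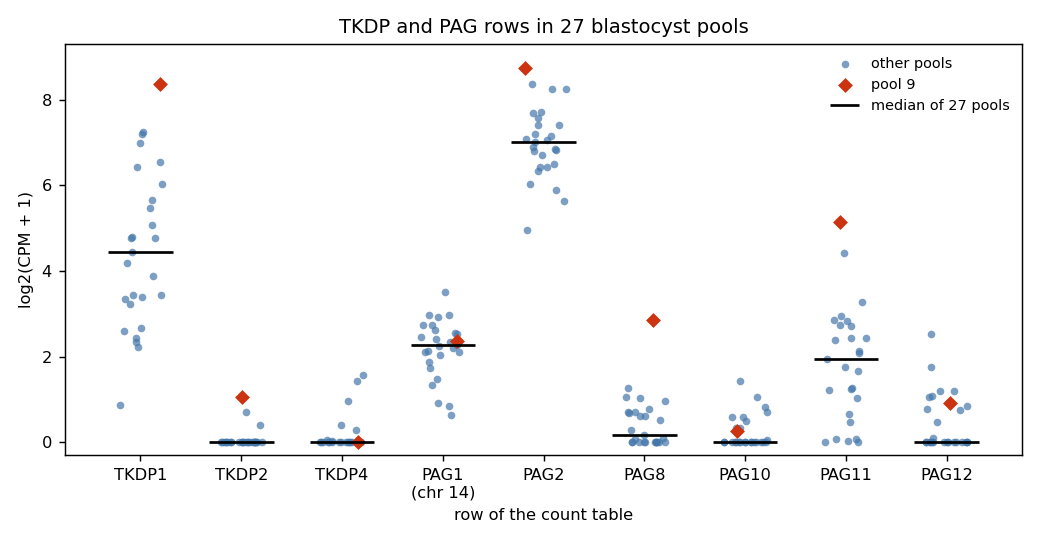
Abundance of the 9 TKDP and PAG rows, as log2(CPM + 1) on the vertical axis, with 1 point per blastocyst pool (27 per row), the median as a bar and pool 9 as a red diamond. Pool 9 is the top point for TKDP1, TKDP2, PAG2, PAG8 and PAG11, and PAG1 of chromosome 14 has the narrowest spread among the 4 rows with a median above 1 CPM.

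The remaining ancient PAG rows were patchy. PAG8, on chromosome 29 from 39726286 to 39736548, had counts in 16 pools and reached 1 CPM in 4 pools. Its highest value was 6.2 CPM in pool 9, and the next was 1.41 CPM in pool 19. PAG12, from 37655999 to 37666176, had counts in 12 pools, with 4.75 CPM in pool 14 and 2.4 CPM in pool 19 as the highest. PAG10, from 37551916 to 37560345, had counts in 11 pools, with 1.72 CPM in pool 12 and 1.08 CPM in pool 19 as the highest. A pool that had counts for one of these rows held a median of 13.5, 19 and 11 counts of PAG8, PAG12 and PAG10, so that most of these pools held more than a single read. Rows with similar totals were present in more pools: the median number of pools without a count was 4, 3 and 9 among the 200 rows nearest in total to PAG8, PAG12 and PAG10, against 11, 15 and 16 for these genes. Reads were not counted by molecule, and cDNA was amplified from a very small RNA input.

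**Figure D2:**
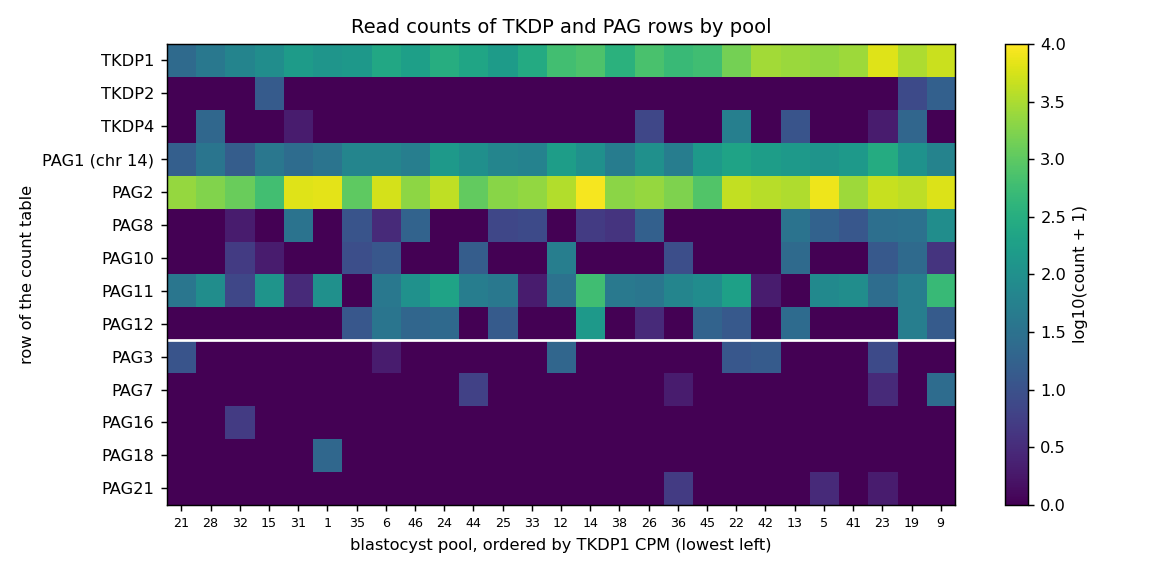
Read counts, as log10(count + 1) in colour, of the 9 member rows (above the white line) and of the 5 modern PAG rows that had any count (below it), in 27 blastocyst pools ordered by TKDP1 abundance. TKDP1, PAG1 of chromosome 14 and PAG2 are filled in every pool, PAG11 in all but 2, and the other rows are mostly empty with scattered pools of higher counts.

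The number of member rows with a count was between 4 and 9 in a pool, with a median of 6. All 9 rows were counted in pool 19, and 4 rows were counted in pools 1, 21 and 42. Pool 9 had counts for 8 rows and none for TKDP4. It was the pool with the highest abundance for 5 of the 9 rows (TKDP1, TKDP2, PAG2, PAG8 and PAG11), of which TKDP2 and PAG8 were not retained. Among the 4 retained members it was highest for 3. It was the highest pool for 7.37% of the 12310 genes retained at 1 CPM in 12 pools. Interferon tau, the trophoblast signal of pregnancy recognition, was also highest in pool 9. The leukocyte sum of 103 CPM was from the same pool, and the part of other cells in its values was not tested.

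The chromosome 29 locus holds many more PAG genes, and these were hardly counted. In the table, 20 PAG rows lay on this chromosome, 5 of the ancient and 15 of the modern clade. All 5 ancient rows had counts, 96553 in total. Of the 15 modern rows, 10 had no count in any pool (LOC281964, PAG4, PAG5, PAG6, PAG9, PAG14, PAG15, PAG17, PAG19 and PAG20), and the other 5 had 127 counts together. The largest of these was PAG3 with 62 counts in 6 pools, at most 0.675 CPM, and the highest value in a single pool was 1.72 CPM for PAG7 in pool 9. PAG2 held 96.3% of the counts on the 20 rows. In single pools PAG2 made up between 84.1% (pool 15) and 99.6% of the summed PAG abundance, with a median of 97.2%. These shares leave out 11 coding rows of the locus without a PAG name, which were not assigned to a family here. LOC528815 had the most counts of them (284, at most 6.18 CPM, in pool 28).

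Products of the mature trophoblast differed from gene to gene. The 8 prolactin-related protein rows analysed (PRP1, PRP2, PRP3, PRP4, PRP6, PRP8, PRP9 and PRP14) had no count, and CSH2, placental lactogen, had 4 counts over all pools. HSD3B1 and CYP11A1, enzymes of steroid synthesis that trophoblast also uses, were retained, with medians of 89.4 and 14.9 CPM. SPP1, listed with them, was also retained, with a median of 25.2 CPM.

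**Figure D3:**
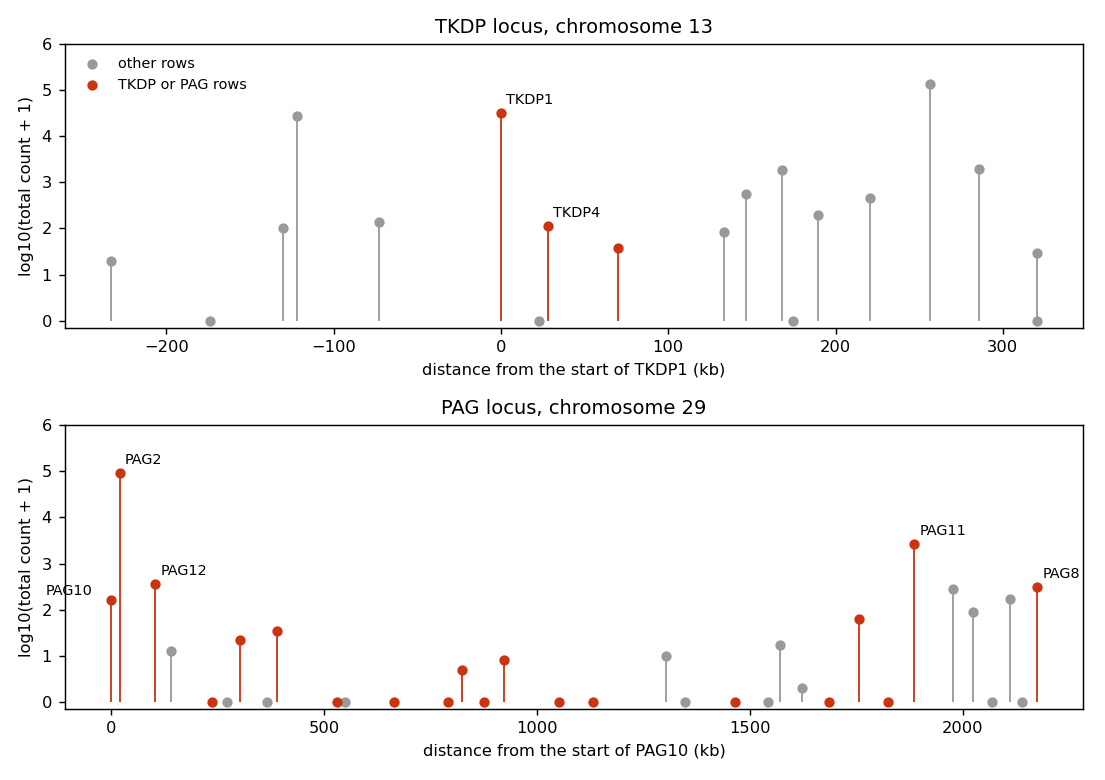
Total counts over the 27 pools, as log10(total count + 1), against the distance in kb from the start of TKDP1 (upper panel) or PAG10 (lower panel), with TKDP and PAG rows as red lines and other rows of the table as grey lines. PAG2 and PAG11 carry the highest lines of the PAG locus, and no row between PAG12 and PAG11 has more than the 62 counts of PAG3.

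Near-identical copies make the low values uncertain. Of the 62 loci annotated from PAG10 to PAG8, 28 were pseudogenes, and a read that maps to several places may be dropped or split between them. How such reads were treated is not given in the sources used here. PAG8 also overlaps the annotated RNA LOC132344201, and reads in the overlap may be assigned to neither. Around the TKDP rows on chromosome 13, 2 loci with no family name in the count table had counts in every pool and were highest in pool 9, LOC618696 (median 31.5 CPM, highest 162 CPM) and LOC616039 (median 186 CPM, highest 536 CPM). Neither passed the correlation test described below with TKDP1 (rho 0.42, adjusted p = 0.269, and rho 0.36, adjusted p = 0.382). Both were picked for description once their values were known. LOC618696 carries the family name in the study, and LOC616039 was not assigned to a family here.

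The spread among pools was set against that of all 12310 retained genes, whose SD of log2(CPM + 1) had a median of 0.43. The SD was 1.86 for TKDP1, at the 99.9th percentile, 1.34 for PAG11 at the 99.2nd, 0.86 for PAG2 at the 94.7th and 0.68 for PAG1 of chromosome 14 at the 84.2nd. Among the 500 retained genes nearest in mean CPM, the percentiles were 99.8, 98.4, 97.8 and 64 in the same order. The 3 trophoblast products were thus among the most uneven genes of their abundance, and PAG1 of chromosome 14 was nearer to the middle. These members were chosen with results of the data known, so the percentiles are a description and no test was made. The percentile of PAG2 depended on the pseudocount and was 77.6 with 0.1 in place of 1.

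**Figure D4:**
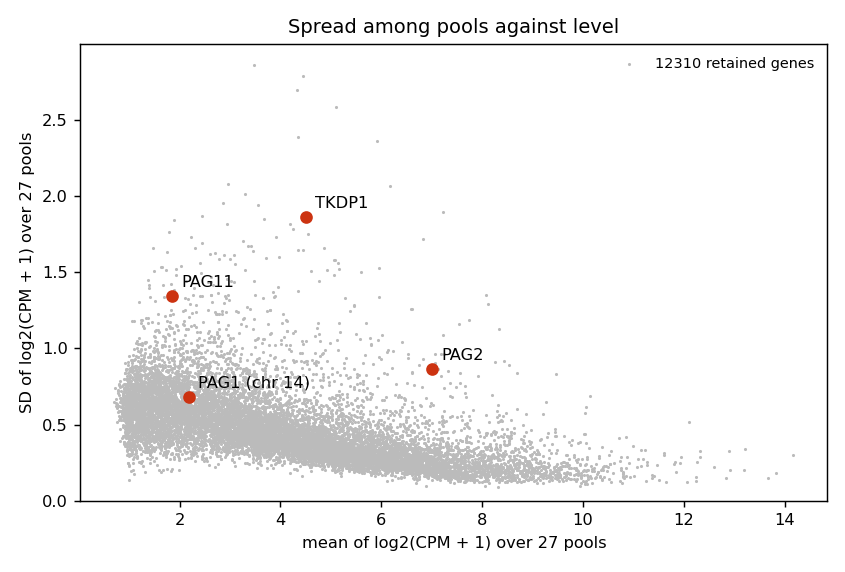
SD over 27 pools against the mean over pools, both of log2(CPM + 1), for the 12310 retained genes (grey) with the 4 retained members in red. TKDP1 (SD 1.86), PAG11 (SD 1.34) and PAG2 (SD 0.86) lie above most genes of their level, and PAG1 of chromosome 14 (SD 0.68) inside it.

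Whether pools high in one member were high in another was tested by correlation over the 27 pools. Each retained member was compared with all other retained genes, and p-values from 100000 permutations were adjusted over all of them by the Benjamini-Hochberg method. Of the 6 pairs, 1 passed an adjusted p of 0.05, TKDP1 with PAG1 of chromosome 14. The Spearman rho was 0.72 (permutation p = 5.0e-05, adjusted p = 0.0158 with TKDP1 as the reference, and permutation p = 2.0e-05, adjusted p = 0.0336 with PAG1). Of all genes tested, 1.5% passed with TKDP1 and 0.203% with PAG1. Pearson r of log2(CPM + 1) was 0.71 (permutation p = 2.0e-05, adjusted p = 0.00794 and 0.0308), where 2.63% and 0.284% of genes passed. The r was 0.69 without pools 9 and 21, the farthest from the median of TKDP1, and 0.62 without pools 21 and 31, the farthest for PAG1. With TMM scaling the pair also passed, beside 1.51% of genes with TKDP1 and 0.0406% with PAG1. Pool 21 was lowest in both and pool 9, highest in TKDP1, was near the middle in PAG1 (4.2 CPM). The call was lost when all genes with any count were tested (adjusted p = 0.0616).

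Pairs within the secreted products did not pass. PAG2 and PAG11, both of the ancient clade and on the same chromosome, had a rho of 0.34 (permutation p = 0.0862, adjusted p = 0.679) and an r of 0.37 (permutation p = 0.0543, adjusted p = 0.59). The r was 0.36 without pools 9 and 15, the farthest from the median of PAG2, and 0.08 without pools 9 and 14, the farthest for PAG11, so it rested on the last pair of pools. No gene (0%) passed with PAG2 or PAG11 by Spearman correlation. TKDP1 and PAG2 had a rho of 0.21 (permutation p = 0.302, adjusted p = 0.686) and an r of 0.32 (permutation p = 0.107, adjusted p = 0.409), which was 0.14 without pools 9 and 21. TKDP1 and PAG11 had a rho of 0.07 (permutation p = 0.726, adjusted p = 0.923), which was -0.04 without pool 9. A p above the limit does not show that the members vary independently.

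Interferon tau was summed over 4 genes (7.21 to 597 CPM, median 41.9 CPM), of which IFNT3 was the most abundant, and compared in the same way. None of the 4 retained members passed an adjusted p of 0.05, and 2 had an unadjusted permutation p under 0.05, by Spearman and by Pearson correlation alike. Of all retained genes, 15.5% had an unadjusted Spearman p under 0.05, and 1.41% passed by Spearman and 1.91% by Pearson correlation. TKDP1 had a rho of 0.51 (permutation p = 0.00744, adjusted p = 0.145) and an r of 0.57 (permutation p = 0.00176, adjusted p = 0.0624). PAG2 had a rho of 0.47 (permutation p = 0.0135, adjusted p = 0.186) and an r of 0.52 (permutation p = 0.0054, adjusted p = 0.106). Leaving out pools 9 and 14, the 2 farthest from the median of interferon tau, gave 0.49 for TKDP1 and 0.32 for PAG2. PAG11 had a rho of -0.10 and an r of 0.13, and r was -0.39 without those pools. The sign for PAG11 therefore rested on pools 9 and 14, which were highest in both.

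**Figure D5:**
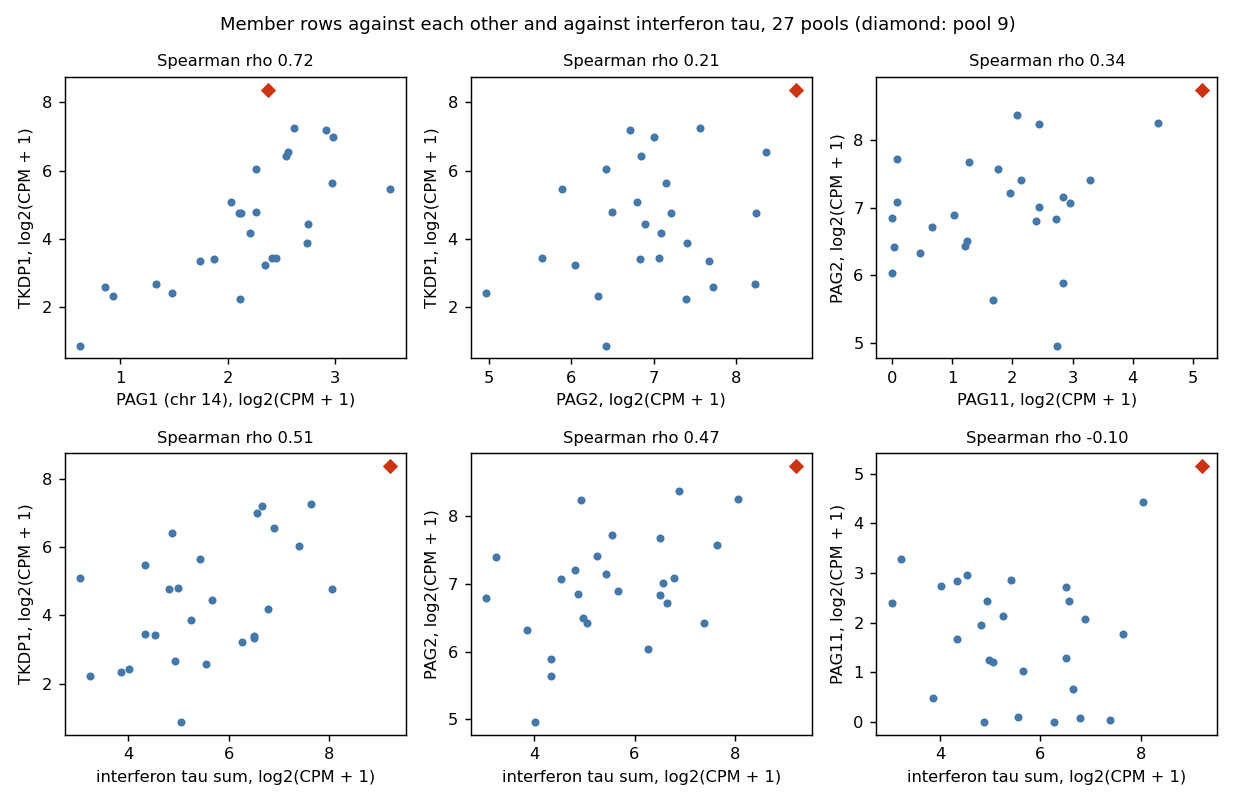
Pairs of member rows (upper panels), and TKDP1, PAG2 and PAG11 against the interferon tau sum (lower panels), all as log2(CPM + 1) with 1 point per blastocyst pool, pool 9 as a red diamond and Spearman rho above each panel. TKDP1 rises with PAG1 of chromosome 14 (rho 0.72), with pool 9 above the other points, and the points of PAG2 against PAG11 (rho 0.34) are scattered.

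No correlation of the members with the lineage lists of the blastocyst passed the limit. Each list was summarised as the mean of standardised log2(CPM + 1) of its retained genes. For regulators of the trophectoderm such as CDX2, GATA3 and TFAP2C, rho with the 4 members was between -0.06 and 0.10. It was between -0.27 and 0.32 for epiblast genes such as NANOG, SOX2 and POU5F1, and between -0.08 and -0.05 for hypoblast genes such as GATA6, PDGFRA and HNF4A. By Spearman and by Pearson correlation, 0 of 4 members passed for each list and 0 had an unadjusted permutation p under 0.05. Of all retained genes, 0.0325% passed for the trophectoderm list, 0% for the epiblast list and 0.106% for the hypoblast list by Spearman correlation, and 4.39%, 0.0406% and 0.707% by Pearson correlation. The total count of the pool had a rho between -0.30 and 0.15 with the members (0 of 4 passed, 0 at an unadjusted p under 0.05, and 0% of all retained genes passed).

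Single genes of the lists were compared with each member as well, 60 genes retained in all. With TKDP1, 1 gene passed by Spearman correlation, GDF3, a TGF-beta family ligand of the epiblast list (rho 0.68, adjusted p = 0.0301), and 13 had an unadjusted p under 0.05. Of all genes tested with TKDP1, 1.5% passed and 14.8% had an unadjusted p under 0.05, so the 1 gene of 60 that passed was near the background. By Pearson correlation 3 of the 60 passed, GDF3 and the trophectoderm regulators ELF5 and DLX3, beside 2.63% of all genes. By rank these 2 regulators had a rho of 0.59 (adjusted p = 0.0683) and 0.54 (adjusted p = 0.101). ELF5 was low (median 1.35 CPM, lowest 0) and was highest in pool 9, as was TKDP1. The trophectoderm regulators (16 retained) had a median rho of -0.17 with TKDP1, against 0.01 over all genes. With PAG1 of chromosome 14, PAG2 and PAG11, 0 of the 60 passed by either correlation, and 4, 7 and 4 genes had an unadjusted Spearman p under 0.05, against 11.9%, 8.12% and 7.82% of all genes. Other Kunitz inhibitors (5 retained) had a median rho of -0.11 with TKDP1, against 0.01 over all genes, and none passed. SPINT2, an inhibitor of membrane serine proteases, was between 236 and 401 CPM in the pools, a narrow range beside the 390-fold of TKDP1. Other aspartic proteases (3 retained) had a median rho of 0.07 with PAG2 and -0.43 with PAG11, against -0.02 and -0.07 over all genes, and none passed. With PAG11, CTSD (-0.53) and PGA5 (-0.43) were negative and NAPSA (0.18) was positive. Other lists had higher medians. With TKDP1 the median rho was 0.50 for products of the mature trophoblast (3 retained), 0.47 for interferon tau (2 retained) and 0.42 for cumulus genes (3 retained). With PAG2 it was 0.42 for products of the mature trophoblast. Among these products SPP1 went the other way, with a rho of -0.20 with TKDP1 and -0.11 with PAG2. HSD3B1 had 0.51 and 0.59, and CYP11A1 had 0.50 and 0.42. No gene of these lists passed.

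The genes most like each member were then listed by Spearman rho over the 27 pools. For TKDP1 these were TREX1, a DNA exonuclease (rho 0.81), CASP8, the initiator caspase of death receptors (0.80), and FABP5, a fatty acid binding protein (0.80), each with the smallest permutation p that can be reached (1e-05, adjusted p = 0.0123). FABP5 was between 80.3 and 1634 CPM, and CASP8 was low, between 0.0326 and 6.96 CPM (median 1.13 CPM). In all 185 genes passed with TKDP1, 141 in the same direction and 44 in the opposite direction, and 54 (0.439%) passed without pool 9. For PAG1 of chromosome 14 the most similar were UBE2E2, a ubiquitin-conjugating enzyme (rho 0.80, adjusted p = 0.0308), LOC107131987 (0.78, adjusted p = 0.0308) and LOC112445534 (0.77, adjusted p = 0.0336), among 25 genes that passed. Without pool 9, 35 genes (0.284%) passed with PAG1. LOC107131987 was also low, with a median of 1.14 CPM and a lowest value of 0.

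Genes that followed TKDP1 and PAG1 were often X-linked. Of the 141 genes positively correlated with TKDP1 (1.15% of genes tested), 50 were on the X chromosome (35.5%), and of the 24 with PAG1 (0.195% of genes tested), 13 were (54.2%), against 446 of 12265 placed retained genes (3.64%). None of the 44 genes negatively correlated with TKDP1 (0.357%) was on X, where few would be at a share of 3.64%. The pools also differed in the summed transcripts of the Y-linked genes DDX3Y, EIF1AY, USP9Y, ZFY and ZRSR2Y, which come from male embryos: 18 pools had between 18.9 and 197 CPM and 9 pools between 0.43 and 1.65 CPM. Within the 18 pools TKDP1 and PAG1 had a rho of 0.74 (permutation p = 0.00054, adjusted p = 0.148 with TKDP1 as the reference and 0.462 with PAG1). Within the 9 pools rho was 0.63 (exact permutation p = 0.076, two-sided) and r was 0.64 (exact permutation p = 0.0684). The pair did not pass the limit in either set. Each pool held 2 embryos, so the 18 pools may differ in how many were male. The split therefore does not hold embryo sex constant within the 18 pools. The 9 pools, at 1.65 CPM or less of Y-linked transcripts, showed little sign of male embryos. The part of sex was not tested. Within the 18 pools, 3 genes (0.0244%) passed with TKDP1 and 0 with PAG1. PAG2 and PAG11 had a rho of 0.31 within the 18 pools (permutation p = 0.212, adjusted p = 0.894 with PAG2 as the reference). Within the 9 pools their rho was 0.69 (exact permutation p = 0.0475, two-sided) and r was 0.55 (exact permutation p = 0.111). The exact p-values were not adjusted for the number of pairs.

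PAG2 and PAG11 had no gene past the adjusted limit by Spearman correlation, with 999 (8.12%) and 963 (7.82%) of 12309 genes at an unadjusted p under 0.05. By Pearson correlation 3 genes (0.0244%) and 0 genes passed. The genes most like PAG2 were FAM241B (rho 0.71), PTGS2, the inducible prostaglandin synthase (0.71), and SULT1E1, the estrogen sulfotransferase (0.70), each with an adjusted p of 0.246. By Pearson correlation SULT1E1 passed (r 0.74, adjusted p = 0.041). PTGS2 was abundant in all pools, between 557 and 1783 CPM, and SULT1E1 was between 0.0675 and 13.5 CPM. For PAG11 they were LOC618297 (rho 0.70, adjusted p = 0.369), TCF12, a helix-loop-helix transcription factor (0.63, adjusted p = 0.52), and LOC506181 (0.62, adjusted p = 0.52). Of the 20 genes most like TKDP1, 7 were on the X chromosome, and of the 20 most like PAG1, 13 were. None of the 20 genes most like PAG2 or PAG11 was on X. With 3.64% of placed retained genes on X, none in 20 is near the background.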

How the data were processed

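Each library was made from the pooled RNA of 2 blastocysts by 3′ end sequencing of cDNA (SMART-Seq v4 3′ DE). Per the methods of the authors, trimming was by fastp, alignment to ARS-UCD2.0 by STAR, and counting by featureCounts. The values deposited were raw read counts per gene. Versions, annotation release and treatment of multimapped reads are not given in the sources used here. All 27 columns were matched to pools by number. Treatment and IVF replicate were not assigned, so relations were not recomputed within them and include any difference between treatments or replicates. The permutations treat all pools as exchangeable. Pools that share a replicate or treatment may not be independent, so the p-values may be too small.

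CPM was calculated from column totals, and the limit of the study (1 CPM or more, 12 pools) kept 12310 genes. Correlations used 100000 two-sided permutations of the pools, with 9 reference measures (the 4 retained members, interferon tau, 3 lineage lists and the total count), and adjustment over all retained genes within each. The permutation test was checked on simulated counts with a fixed dispersion and no replicate or treatment structure. That check therefore cannot show how shared replicates or treatments affect the p-values. Positions and names were from the RefSeq table of ARS-UCD2.0. No sequences were used here, so the planned comparison of sequences was not made. PAG clades were assigned from general knowledge.

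The members and lists were chosen with earlier results of these data known. Genes named were all members, other retained family rows, the 3 genes most like each retained member, and at most 6 genes per list, highest mean CPM first. The modern PAG rows, neighbouring loci and list genes outside that rule (CDX2, ELF5, DLX3, GDF3 and others) were picked with their values already known. The settings varied were the CPM limit, TMM and DESeq2 size factors, the pseudocount, the correlation, the genes tested, the p limit and pool 9. The split by Y-linked transcripts, the comparison with rows of similar total and the count of X-linked genes were added after seeing the data. Intervals of 3 counts cover counting error only. Python 3.11.15, numpy 2.4.6, pandas 2.3.3, scipy 1.17.1, R 4.3.3, edgeR 4.0.16 and DESeq2 1.42.0 were used.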

Additional observations from a re-analysis of the deposited data

How the results depend on the processing

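Of the 9 member rows, 4 were retained at 1 CPM in 12 pools, 1 (PAG2) at 1 CPM in all 27 pools and 9 with any count. Median CPM moved by less than the SD over pools under each scaling. With a pseudocount of 0.1 the percentile of the SD was 99 for TKDP1, 99.7 for PAG11 and 77.6 for PAG2, and the SD was 2.31 for PAG11 and 2.01 for TKDP1. The number of correlated pairs was 1, and it was 0 with all genes with any count tested, at an adjusted p of 0.01 and in the 18 pools with more than 10 CPM of Y-linked transcripts, where fewer pools were used (chosen after seeing the data). It was 1 with TMM, by Pearson correlation and without pool 9 (adjusted p = 0.0385). No member passed with interferon tau, a lineage list or the total count under any setting.

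Correlations that were not past the limit changed sign in these cases. By Pearson correlation of log2(CPM + 1) and of log2(CPM + 0.1), PAG11 with interferon tau was 0.13 and 0.01, PAG1 with trophectoderm regulators 0.10 and 0.14, PAG1 with hypoblast genes 0.01 and 0.01, PAG1 with total count -0.03 and -0.04, and PAG2 with total count -0.01 and -0.01, and PAG1 with PAG2 was 0.02 with 0.1. With TMM, PAG11 with trophectoderm regulators was 0.04 and PAG1 with PAG2 was 0.00. Without pool 9, TKDP1, PAG1 and PAG11 with trophectoderm regulators were 0.04, 0.01 and 0.07, TKDP1 and PAG11 with hypoblast genes 0.11 and 0.03, and TKDP1 with PAG11 -0.04. Within the 18 pools the same 3 with trophectoderm regulators were 0.05, 0.25 and 0.07, TKDP1 and PAG1 with hypoblast genes 0.14 and 0.37, and with total count -0.03 and -0.24. The cause was not tested. At 3 counts the depth allows 0.0678 to 0.285 CPM in a pool listed without a count. The part of depth in the empty pools of TKDP2, TKDP4, PAG8, PAG10 and PAG12 was not tested. No paired analysis was made, since the labels tie no pool to a treatment or an IVF replicate.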
